A study of Mus musculus with 8 samples.

Results

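The 45 genes described here take up fatty acids, bind and activate them, carry them into mitochondria, oxidise them, release them from lipid droplets, or belong to the PPAR receptors that control such genes. They were chosen by symbol from a list of the pathway, and all 45 were found among the 25237 genes of the deposited table. The libraries come from muscle stem cells, taken from male mice aged 2 to 4 months: 4 libraries from mice treated with ketones, the small fuels that the liver makes from fat in fasting, and 4 from mice given PBS, a salt buffer without them. The cells had been sorted from hindlimb muscle as VCAM1+/CD31-/CD45-/Sca1-, and neither dose nor route nor length of the treatment is stated in the labels. The strain entry reads C57BL/7 for ketone library 1, C57BL/8 for ketone library 2, C57BL/9 for ketone libraries 3 and 4 and C57BL/6 for all PBS libraries, so that, if these name strains, strain and treatment cannot be told apart. No other allele or agent is given for either group. The labels do not tie libraries to separate animals, so the p-values weigh differences only against the scatter among these 8 libraries, part of which may be technical. Depth was 19174005 to 36870537 reads per library.

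Long-chain fatty acids enter cells partly through CD36 and are held in the cytosol by fatty acid binding proteins. Acyl-CoA synthetases activate them, carnitine palmitoyltransferase 1 commits them to the mitochondrion, and repeated cycles of beta-oxidation cut them into acetyl-CoA, the substrate from which the liver makes ketone bodies. PPARs are nuclear receptors that bind fatty acids and switch on many of these genes: PPAR alpha and delta are known for oxidation in liver and muscle, and PPAR gamma for fat storage in adipocytes and fatty acid uptake by capillary endothelium. In muscle, quiescent stem cells are known to rely more on fatty acid oxidation than dividing ones.

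Of 7 genes of fatty acid uptake and binding 5 were higher in the ketone libraries, as were 2 genes of triglyceride breakdown. Of the beta-oxidation enzymes 4 were lower and 1, Acadm, was higher. The calls of these enzymes, and of the uptake and binding genes Lpl and Fabp3, were lost when certain single libraries were left out. The carnitine shuttle did not pass in either direction. Values are normalized counts, which are read counts divided by 1 factor per library. A log2 change is the ketone mean minus the PBS mean of log2(normalized count + 1), given with its SE, and a gene rose or fell where its adjusted p was below 0.05 in limma fitted over all 14022 genes with a mean of at least 10. Of the 45 genes 43 reached that mean, and Cpt1b and Ucp3 did not. Fabp3 reached it only through its ketone values, so its place among the rises is no separate support. Of the 43, 9 rose and 9 fell (20.9% each), against 12.8% of all tested genes that rose and 12.8% that fell, shares set side by side without a test. The median log2 change was -0.06 over the 43 genes and -0.01 over all tested genes. At least 2-fold changes numbered 6 rises (all tested genes: 8.23%) and 2 falls (all tested genes: 4.48%). The 4 ketone values lay wholly above the 4 PBS values for 8 genes and wholly below them for 4, where 14.2% and 14.1% of all tested genes did so.

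Across 18 alternative fits without a covariate, 6 of the 9 rises and 1 of the 9 falls passed every time. These fits all kept Cd36, Fabp4, Fabp5, Pnpla2, Lipe and Pparg as higher and Angptl4 as lower, and every other called gene lost its call in at least 1 of them. Leaving out PBS library 1, 2, 3 or 4 lowered the number of falls to 1, 3, 3 and 2, and leaving out ketone library 2 lowered it to 3. Changed genes among all tested genes numbered 3600 in the main fit. They numbered 2356, 2885, 2537 and 2636 without PBS library 1, 2, 3 or 4, and 3622 without ketone library 2. With equal library totals 10 genes rose, Hadhb among them, and 2 fell, Angptl4 and Acads. In bulk RNA, more cells of a type and more RNA per cell cannot be told apart. Exons of 15 of the 45 genes overlap exons of another annotated gene, among them the called genes Fabp3, Acsl3, Hadha, Etfb, Etfdh and Lipe. The notes do not state whether reads were counted by strand, so reads of such overlaps cannot be assigned.

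**Figure D1:**
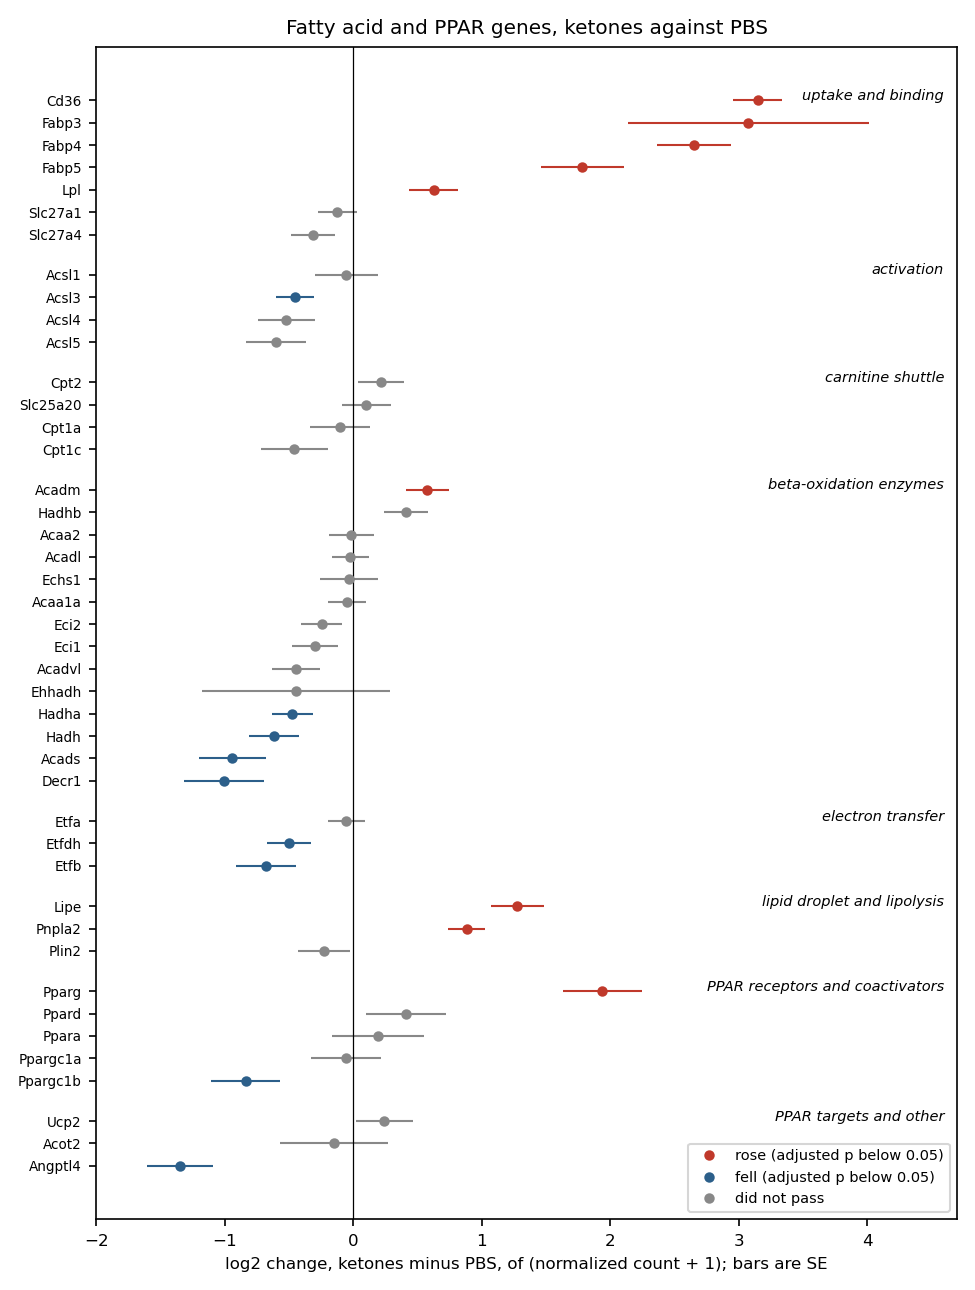
Log2 change of (normalized count + 1), ketones minus PBS, for the 43 tested genes (points, with SE as bars), ordered within each role, with red for genes that rose, blue for genes that fell and grey for the others. Uptake genes reach 3.15 (Cd36), and the beta-oxidation enzymes lie between -1.01 (Decr1) and 0.58 (Acadm).

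Markers of other cells moved with the groups, and their part in the results on the pathway was not tested. The counts of markers below stand beside 12.8% of all tested genes that rose and 12.8% that fell. All 20 endothelial markers rose, and their summed level was 38224 to 92102 normalized counts in the ketone libraries, against 10587 to 13177 in the PBS libraries. Pecam1 and Ly6a encode CD31 and Sca1, the markers that the sort selected against. Pecam1 had 4259, 5606, 2130.4 and 4935 in the ketone libraries, against 680.0, 649, 907 and 694 in the PBS libraries. Ly6a had 6102, 5665, 2319.6 and 5543 in the ketone libraries, against 506, 569, 514 and 549.6 in the PBS libraries. Both groups of ketone values lay above the PBS values (adjusted p = 1.68e-05 and 3.28e-06). The pan-leukocyte gene Ptprc, for the third negative marker, CD45, did not pass (adjusted p = 0.217) and stood out in ketone library 1, at 299, against 16.1 to 28.4 in the PBS libraries. By the mean over all 8 libraries, the most abundant endothelial markers were the water channel gene Aqp1 and the surface protein gene Ly6c1. Aqp1 averaged 28175 ± 10959 normalized counts in the ketone libraries and 3264 ± 732 in the PBS libraries. Ly6c1 averaged 7736 ± 2439 normalized counts in the ketone libraries and 622 ± 29.7 in the PBS libraries (SD, n = 4 each, as for all means here). No endothelial marker was at 0 in all libraries of either group. Of 10 adipocyte markers 6 could be tested and 1 rose, the carbonic anhydrase gene Car3, with 1150.4, 188, 487 and 69.2 in the ketone libraries, against 34.9, 32.6, 33.9 and 20.9 in the PBS libraries. The other abundant adipocyte marker, the secreted protease gene Cfd, had 1455, 102, 388 and 0 in the ketone libraries, against 3.58, 8.40, 9.23 and 4.17 in the PBS libraries (adjusted p = 0.107). All PBS values of Cfd lay below 10, so it entered the test only through its ketone values. The adipocyte sum was 123 to 2914 normalized counts in the ketone libraries, against 52.9 to 69.9 in the PBS libraries, with Lep, Retn and Adrb3 listed at 0 in all PBS libraries. Its values within the ketone group were 2914, 334, 992 and 123 in libraries 1 to 4, so library 1 stood far above library 4. Car3, Cfd and the myofiber sum were all highest in ketone library 1. Whether the RNA of Car3 and Cfd came from adipocytes was not tested. Myofiber RNA was uneven too. Of 16 myofiber markers 9 rose and 0 fell in limma, with a sum that reached 31378 in ketone library 1, ran from 4502 to 6098 over ketone libraries 2 to 4, and from 4037 to 5349.7 over the PBS libraries. Skeletal actin, Acta1, had 12355, 1832, 2177 and 1924 in the ketone libraries, against 958, 691, 737 and 938 in the PBS libraries. The lists for other cells of muscle moved less evenly. Of 15 blood and immune markers, 14 of them tested, 7 rose and 0 fell, summing to 1630.4 to 11858 normalized counts in the ketone libraries, against 1082 to 1493 in the PBS libraries. Fibro-adipogenic markers (4 of 10 rose, 3 fell) summed to 40327 to 65318 normalized counts in the ketone libraries, against 62690.2 to 87800.0 in the PBS libraries. Smooth muscle and pericyte markers (6 of 10 rose, 1 fell) summed to 70000.3 to 87364 normalized counts in the ketone libraries, against 68588 to 73304 in the PBS libraries. A sum depends on which genes its list holds, so these sums do not rank the cell types by abundance. Whether the sorted cells themselves express some of the listed genes was not tested. The sorted cells' own markers were abundant in every library. Of 11 muscle stem cell markers 0 rose and 5 fell, with a sum of 301248 to 433712 normalized counts in the ketone libraries, against 385353 to 425534 in the PBS libraries. Vcam1, the positive sort marker, fell (adjusted p = 0.0206), at 24879 ± 10765 normalized counts in the ketone libraries and 42043 ± 3281 in the PBS libraries, while Pax7, the transcription factor that defines these cells, singled out after its values were seen, did not pass (log2 change -0.24 ± 0.15, adjusted p = 0.265).

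Of the 7 uptake and binding genes 5 rose, 0 fell and 2 did not pass, with a median log2 change of 1.78. The 5 and the median include Fabp3, which entered the test only through its ketone values, so its rise is no separate support. Among all tested genes 12.8% rose and 12.8% fell. Without ketone library 1, ketone library 4, PBS library 2 or PBS library 4, 3 of the 7 rose. Cd36 (chromosome 5, 17781690 to 17888801, mm10), which encodes the fatty acid translocase, had 13334, 15004, 8033 and 14888 normalized counts in ketone libraries 1 to 4, against 1415, 1354, 1559 and 1294 in PBS libraries 1 to 4. The lowest ketone library, library 3, was far above the highest PBS library. Its log2 change was 3.15 ± 0.19 (limma adjusted p = 7.32e-07), and without any 1 library it stayed between 3.06 and 3.36.

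Promoter sequence is shown for 3 genes, Cd36, Acadm and Hadhb. Cd36 had the largest rise of the set, and Acadm was the only beta-oxidation enzyme gene that rose in the main fit. Hadhb did not pass, and its promoter also faces the neighbouring subunit gene Hadha. Each sequence is the 250 bases before the RefSeq start in build GRCm38.p6, 5′ to 3′ on the strand of the gene. The start used for Cd36, 17835896, lies inside the annotated gene, which reaches upstream to 17888801, so any start further upstream is not covered. Capitals mark AGGNCA, the half-site that PPAR and its partner RXR bind in pairs, on either strand.
Cd36 promoter, chr5:17835897-17836146, minus strand: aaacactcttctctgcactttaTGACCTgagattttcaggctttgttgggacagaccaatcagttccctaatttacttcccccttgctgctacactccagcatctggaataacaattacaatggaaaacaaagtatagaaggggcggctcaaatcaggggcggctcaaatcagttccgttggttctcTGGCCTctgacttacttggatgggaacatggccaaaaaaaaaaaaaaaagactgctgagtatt
Acadm promoter, chr3:153944644-153944893, minus strand: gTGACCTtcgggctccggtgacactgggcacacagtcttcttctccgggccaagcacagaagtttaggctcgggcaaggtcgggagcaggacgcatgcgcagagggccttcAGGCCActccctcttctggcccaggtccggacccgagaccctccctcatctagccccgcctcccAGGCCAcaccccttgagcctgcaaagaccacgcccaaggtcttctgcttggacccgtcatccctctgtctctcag
Hadhb promoter, chr5:30155003-30155252, plus strand: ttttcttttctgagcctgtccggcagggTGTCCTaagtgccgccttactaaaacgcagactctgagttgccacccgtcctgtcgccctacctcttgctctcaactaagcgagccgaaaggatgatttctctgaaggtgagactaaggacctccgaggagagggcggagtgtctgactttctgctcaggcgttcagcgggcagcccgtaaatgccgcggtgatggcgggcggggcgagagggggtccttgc
RefSeq promoters were matched for 37 of the 45 genes. The half-site AGGNCA stood on either strand in at least 1 such window of 28 of these 37 genes (75.7%), against 54.8% of all 27025 genes with a promoter sequence and 51.8% of the tested genes. The paired motif AGGNCANAGGNCA, which holds 2 half-sites with 1 base between them, was in 0 of the 37 and in 0.4% of all genes. Such a match describes letters in this window and says nothing of binding.

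All 3 binding protein genes rose, though the rise of Fabp3 is no separate support, for the reason given below. Fabp4 (chromosome 3, 10204088 to 10208576), known from adipocytes and capillary endothelium, had 16697, 11763, 5168 and 9742 normalized counts in ketone libraries 1 to 4, against 1340.3, 1209, 2058 and 1892 in PBS libraries 1 to 4. The groups did not overlap, and the log2 change was 2.65 ± 0.29 (adjusted p = 2.94e-05). Fabp5, the epidermal type, was lower in level, with 325, 219, 113 and 183 normalized counts in ketone libraries 1 to 4, against 60.9, 69.3, 53.4 and 44.5 in PBS libraries 1 to 4. It rose by 1.78 ± 0.33 on the log2 scale (adjusted p = 0.0014). Fabp3, the heart and muscle type, was near the detection limit: it had 53, 15, 18 and 28 reads in the ketone libraries, against 9, 0, 6 and 0 in the PBS libraries. With means of 24.0 normalized counts in the ketone libraries and 3.55 in the PBS libraries, Fabp3 entered the test only through the ketone group. Its log2 change of 3.08 ± 0.94 (adjusted p = 0.0272) rests on those few reads, and it passed in 4 of 8 fits that left out 1 library, not without ketone library 1, ketone library 4, PBS library 2 or PBS library 4.

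Lpl encodes lipoprotein lipase, which frees fatty acids from circulating triglyceride. It had 9145, 7233, 5164 and 9556 normalized counts in ketone libraries 1 to 4, against 5278, 4134, 5621 and 4706 in PBS libraries 1 to 4. Ketone library 3 lay inside the PBS range and the other ketone libraries above it, and the rise of 0.62 ± 0.19 (adjusted p = 0.0293) was kept in 3 of 8 fits that left out 1 library. It was lost without ketone library 1 or 4, or PBS library 1, 2 or 4, where the adjusted p was up to 0.0925. The transporter genes Slc27a1 and Slc27a4, which encode FATP1 and FATP4, had log2 changes of -0.13 ± 0.15 and -0.31 ± 0.17 and did not pass (adjusted p = 0.581 and 0.203). Slc27a1 was at 2440.3 ± 418 normalized counts in the ketone libraries and 2642 ± 237 in the PBS libraries, so its mean differed by less than the SD of either group. Gpihbp1, no member of the 45 but the endothelial protein that carries lipoprotein lipase to the capillary lumen, had 3506, 2724, 1249 and 2523 normalized counts in ketone libraries 1 to 4, against 185, 143, 266 and 203 in PBS libraries 1 to 4, a log2 change of 3.59 ± 0.28 (adjusted p = 2.41e-06).

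Ketone library 3 was low for most of the genes that rose. Of the 9 genes that rose, 7 had their lowest ketone value in library 3, as did 19 of the 20 endothelial markers and 22.7% of all tested genes. Endothelial sums were 78947, 92102, 38224 and 80945 in ketone libraries 1 to 4. The exceptions among the 9 were Fabp3, lowest in ketone library 2, and Acadm, lowest in ketone library 1. Ketone library 4, where the adipocyte sum was lowest of the ketone group, had 14888 normalized counts of Cd36 and 9742 of Fabp4. Its adipocyte sum, 123, was still above the PBS sums of 52.9 to 69.9. Which cells gave the RNA of the risen genes was not tested.

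**Figure D2:**
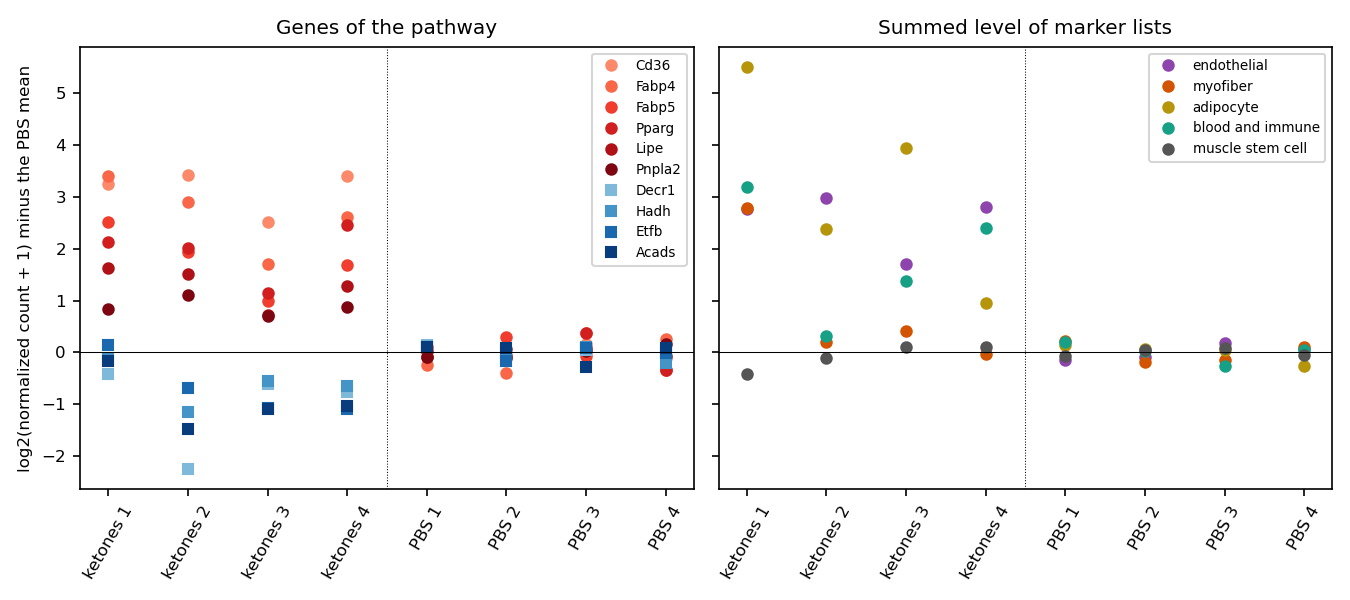
Log2(normalized count + 1) minus the PBS mean in each of the 8 libraries, for 10 genes of the pathway (left; circles for genes that rose, squares for genes that fell) and for the summed level of 5 marker lists (right). Ketone library 3 is lowest of its group for the 6 plotted genes that rose and for the endothelial sum, and ketone library 1 is highest for the myofiber and adipocyte sums.

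Breakdown of stored triglyceride is begun by adipose triglyceride lipase, encoded by Pnpla2, and continued by hormone-sensitive lipase, encoded by Lipe. Both genes rose. Pnpla2 had 5960.5, 7176, 5408 and 6072 normalized counts in ketone libraries 1 to 4, against 3138, 3065, 3400.3 and 3719 in PBS libraries 1 to 4. All ketone values lay above all PBS values, for a log2 change of 0.88 ± 0.14 (adjusted p = 0.000524). Lipe had 813, 748, 431 and 637 in the ketone libraries, against 247, 275, 279 and 252 in the PBS libraries. Its groups did not overlap either, and the log2 change was 1.28 ± 0.21 (adjusted p = 0.000616). Plin2, which coats lipid droplets, was at 543 ± 117 normalized counts in the ketone libraries and 635 ± 136 in the PBS libraries and did not pass (log2 change -0.23 ± 0.20, adjusted p = 0.434).

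All 4 acyl-CoA synthetase genes had a log2 change below 0, and 1 of them fell. Among all 14022 tested genes 7135 had a log2 change below 0 and 12.8% fell. Acsl3, a synthetase of lipid droplets and the endoplasmic reticulum, had 1989, 1922, 2539.6 and 2509 normalized counts in ketone libraries 1 to 4, against 3146, 2974, 3363 and 2751 in PBS libraries 1 to 4. The groups did not overlap, with a log2 change of -0.46 ± 0.15 (adjusted p = 0.036). It was lost without ketone library 2, or PBS library 1, 2, 3 or 4, where the adjusted p was up to 0.121. Acsl5 and Acsl4, the second of which prefers arachidonic acid, had log2 changes of -0.60 ± 0.23 and -0.52 ± 0.22 (adjusted p = 0.0731 and 0.0987). In fits that left out 1 library, Acsl5 passed without ketone library 1 (-0.82) and Acsl4 passed without ketone library 3 (-0.66). Each was the highest ketone library of its gene, so these passes are no separate support. Acsl1, the main synthetase of fat and muscle, was at 723 ± 249 normalized counts in the ketone libraries and 722 ± 120.1 in the PBS libraries. Its log2 change of -0.05 ± 0.24 did not pass (limma adjusted p = 0.895) and turned sign in some alternative fits, so its direction is not settled.

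No gene of the carnitine shuttle passed. Cpt1a encodes the form of carnitine palmitoyltransferase 1 found in liver and most tissues. It had 2229, 2939, 5158 and 5049 normalized counts in ketone libraries 1 to 4, against 3897, 3588, 3832 and 4226 in PBS libraries 1 to 4. The ketone libraries fell into a low pair, libraries 1 and 2, and a high pair, libraries 3 and 4, on either side of the PBS range, and the log2 change was -0.10 ± 0.23 (adjusted p = 0.78). The brain form Cpt1c had a log2 change of -0.46 ± 0.26 (adjusted p = 0.217). Cpt1b, the form of muscle fibers and heart, had 8, 11, 0 and 4 reads in the ketone libraries, against 1, 0, 0 and 0 in the PBS libraries, too few to test. Per kb of annotated exon the order was Cpt1a, Cpt1c and Cpt1b in both groups. Cpt1a stood at 503 ± 194 per kb in the ketone libraries and 508 ± 34.4 per kb in the PBS libraries. Cpt1c stood at 55.0 ± 17.5 per kb in the ketone libraries and 73.0 ± 13.2 per kb in the PBS libraries. Cpt2, the inner membrane partner, was at 355 ± 14.1 normalized counts in the ketone libraries and 307 ± 39.3 in the PBS libraries, with a log2 change of 0.22 ± 0.18 (adjusted p = 0.394). Slc25a20, the carnitine-acylcarnitine carrier, changed by 0.10 ± 0.19 (adjusted p = 0.734).

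Of the 17 genes for beta-oxidation enzymes and the electron transfer proteins behind them, 1 rose, 6 fell and 10 did not pass. Of all tested genes 12.8% rose and 12.8% fell. The 4 acyl-CoA dehydrogenases, each for its own chain length, differed in direction. Acadm, for medium chains, had 1523, 1968, 2489.8 and 2258 normalized counts in ketone libraries 1 to 4, against 1267, 1289, 1388 and 1504 in PBS libraries 1 to 4. It rose by 0.58 ± 0.17 on the log2 scale without overlap (adjusted p = 0.0213), a call lost without ketone library 3 or 4, or PBS library 1, 2 or 3, where the adjusted p was up to 0.0751. Acads, for short chains, had 310.1, 126, 163 and 170.5 in the ketone libraries, against 377, 371, 286 and 373 in the PBS libraries. Ketone library 1 lay inside the PBS range and the others below it, and the log2 change was -0.94 ± 0.26 (adjusted p = 0.0178), a call lost without PBS library 1, 2 or 4, where the adjusted p was up to 0.0581. Acadl, for long chains, differed by less than 1 SD, at 2447 ± 133 normalized counts in the ketone libraries and 2506 ± 339 in the PBS libraries (log2 change -0.02 ± 0.14, adjusted p = 0.92). Acadvl, for very long chains, had a log2 change of -0.45 ± 0.18 (adjusted p = 0.0932). It passed without ketone library 1, its highest ketone library, or PBS library 2, its lowest PBS library (down to -0.61). These passes are no separate support. Per kb, Acadl and Acadvl were the most abundant of the 4 in both groups. Acadl had 1221 ± 66.4 per kb in the ketone libraries and 1249.6 ± 169 per kb in the PBS libraries. Acadvl had 914 ± 174 per kb in the ketone libraries and 1252 ± 253 per kb in the PBS libraries. Acads was the least abundant, with 84.8 ± 35.7 per kb in the ketone libraries and 155 ± 19.3 per kb in the PBS libraries.

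**Figure D3:**
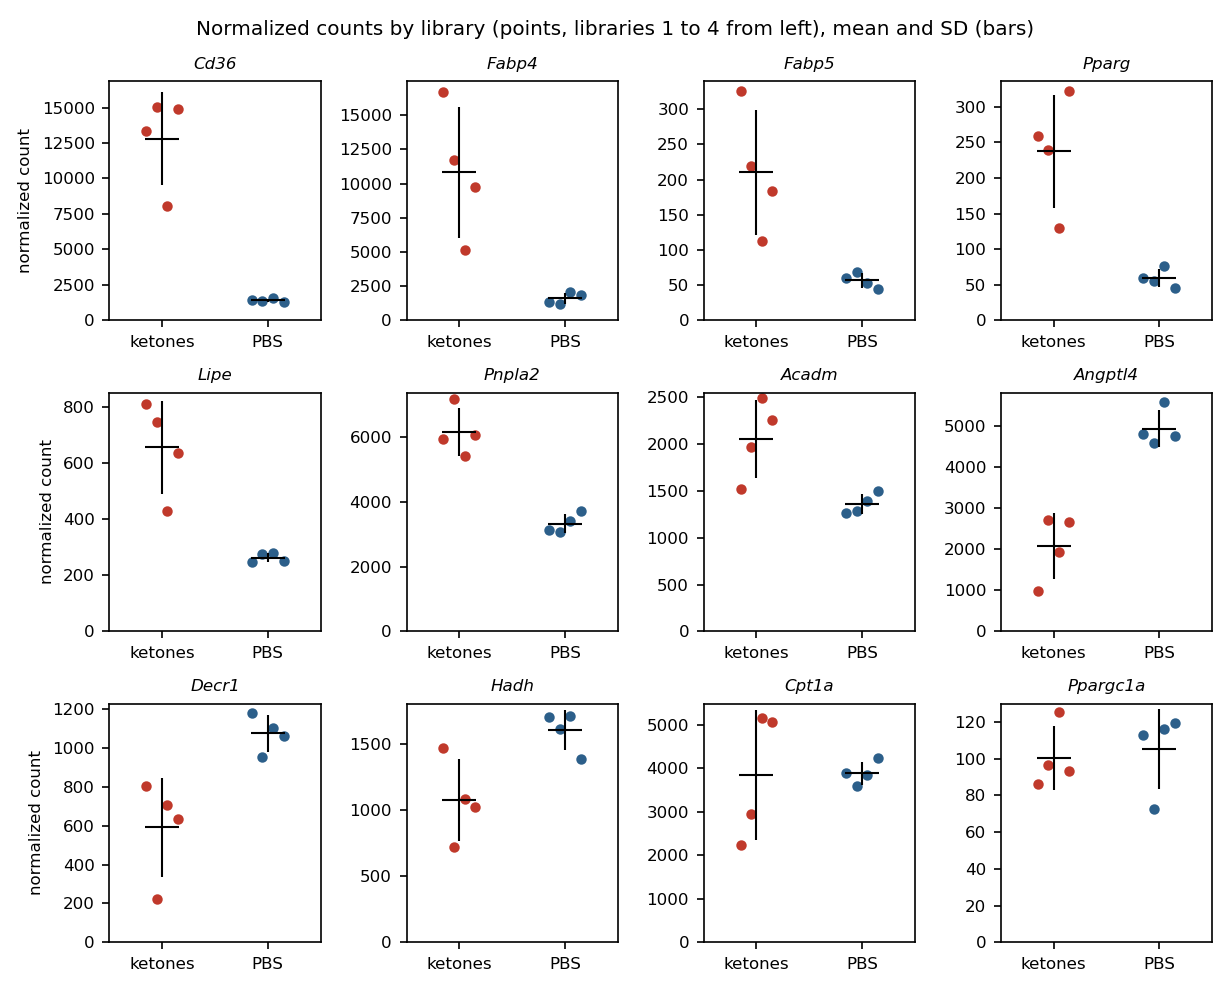
Normalized counts of 12 genes of the pathway in each library (points, libraries 1 to 4 from left to right), with mean and SD as bars, ketones left of PBS in each panel and all axes starting at 0. The ketone points lie above the PBS points without overlap for Cd36, Fabp4, Fabp5, Pparg, Lipe, Pnpla2 and Acadm and below them for Angptl4 and Decr1.

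Decr1 encodes the reductase needed to oxidise polyunsaturated fatty acids. It had 803, 224, 704 and 633 normalized counts in ketone libraries 1 to 4, against 1180.0, 955, 1102 and 1062 in PBS libraries 1 to 4. Ketone library 2 was the lowest by far, and the log2 change of -1.01 ± 0.31 (adjusted p = 0.0301) was -0.59 without that library. The call was lost without PBS library 1, 2, 3 or 4, where the adjusted p was up to 0.0799. Hadh, the short-chain hydroxyacyl-CoA dehydrogenase gene, had 1473, 720.2, 1084 and 1026 in the ketone libraries, against 1708, 1614, 1710.4 and 1391 in the PBS libraries. It fell by 0.62 ± 0.20 on the log2 scale (adjusted p = 0.0329), with ketone library 1 inside the PBS range. It was lost without ketone library 2 or 4, or PBS library 1, 2 or 3, where the adjusted p was up to 0.0958.

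The trifunctional protein, which carries out the last 3 steps for long chains, is built from the products of Hadha and Hadhb. Their RefSeq starts lie 272 bases apart on opposite strands of chromosome 5, and the Hadhb promoter printed above fills nearly all of that gap. Hadha had 1648, 1414, 1248 and 1771 normalized counts in ketone libraries 1 to 4, against 2226, 1738, 2196 and 2261 in PBS libraries 1 to 4. Hadhb had 754, 933, 1077 and 1123 in the ketone libraries, against 683, 834, 719 and 661 in the PBS libraries. Ketone library 4 of Hadha lay just above PBS library 2, and PBS library 2 of Hadhb lay above ketone library 1, so both genes overlapped. Hadha fell (log2 change -0.47 ± 0.16, adjusted p = 0.041), and Hadhb had a log2 change of 0.41 ± 0.17 and did not pass (adjusted p = 0.0909). Hadha was lost without ketone library 2 or 3, or PBS library 1, 3 or 4, where the adjusted p was up to 0.125. Hadhb passed without ketone library 1, its lowest ketone library (0.53). The log2 ratio of Hadha to Hadhb was 0.65 ± 0.38 in the ketone libraries and 1.54 ± 0.33 in the PBS libraries (SD, n = 4 each), a difference that did not pass in a two-sided exact permutation test (p = 0.0571, smallest possible 0.0286). Ketone library 1, at 1.13, overlapped PBS library 2, at 1.06, and the pair was singled out after its values were seen.

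Electrons from the acyl-CoA dehydrogenases pass to ETF, the product of Etfa and Etfb, and on to the membrane enzyme encoded by Etfdh. Etfb had 1560.0, 887, 673 and 666 normalized counts in ketone libraries 1 to 4, against 1525, 1261, 1509 and 1399.8 in PBS libraries 1 to 4. Etfdh had 766, 606, 946 and 907 in the ketone libraries, against 1176, 979.8, 1166 and 1195 in the PBS libraries. Both fell, Etfb by 0.68 ± 0.23 and Etfdh by 0.50 ± 0.17 on the log2 scale (adjusted p = 0.0483 and 0.0454), though Etfb was highest of all 8 libraries in ketone library 1. Etfa, the other subunit gene, was at 1502 ± 175 normalized counts in the ketone libraries and 1555 ± 139 in the PBS libraries (log2 change -0.05 ± 0.15). Etfb was lost without ketone library 2, 3 or 4, or PBS library 1, 2, 3 or 4, where the adjusted p was up to 0.127. Etfdh was lost without ketone library 1 or 2, or PBS library 1, 2, 3 or 4, where the adjusted p was up to 0.127. Each of the 6 falls was thus lost in some of the 8 fits that left out 1 library, and Acads, which passed in 5 of them, was the steadiest. Of the 17 genes 10 had their highest ketone value in library 1, against 28.9% of all tested genes, the library with the highest myofiber sum. The part of fiber RNA in these values was not tested. Without that library 6 of the 14 beta-oxidation enzymes and 1 electron transfer gene fell. Without ketone library 2 the enzymes that fell numbered 2, and without PBS library 1, 2, 3 and 4 they numbered 0, 2, 1 and 1, with 0 electron transfer genes in each of these 5 fits.

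The remaining enzymes did not pass. Echs1 of enoyl-CoA hydration, Acaa2 and Acaa1a of mitochondrial and peroxisomal thiolysis had log2 changes of -0.03 ± 0.23, -0.02 ± 0.17 and -0.05 ± 0.15. Acaa1a has a near-identical neighbour, Acaa1b, so its count is uncertain. For the isomerase genes Eci1 and Eci2, needed for unsaturated fatty acids, they were -0.30 ± 0.18 and -0.24 ± 0.16. Eci1 passed without ketone library 1, its highest ketone library (-0.45). Ehhadh, the peroxisomal bifunctional enzyme, was low and uneven, with 69, 3, 43 and 66 reads in the ketone libraries, against 67, 32, 26 and 23 in the PBS libraries (log2 change -0.45 ± 0.73).

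Where 12.8% of all tested genes rose, 1 of the 3 PPAR receptor genes did so, Pparg (chromosome 6, 115360951 to 115490399). It had 259, 239, 130.4 and 322 normalized counts in ketone libraries 1 to 4, against 59.1, 55.7, 75.9 and 45.9 in PBS libraries 1 to 4. The groups did not overlap, with a log2 change of 1.94 ± 0.31 (adjusted p = 0.000514). Ppard had 289, 485, 153 and 195 in the ketone libraries, against 154, 179.6, 222 and 218 in the PBS libraries. Ketone libraries 1 and 2 lay above the PBS range, library 4 inside it and library 3 just below it, for a log2 change of 0.41 ± 0.31 (adjusted p = 0.365). Ppara was low in both groups, at 46.6 ± 5.53 normalized counts in the ketone libraries and 41.5 ± 11.9 in the PBS libraries (log2 change 0.19 ± 0.36, adjusted p = 0.729). Per kb, Pparg stood at 80.5 ± 27.0 per kb in the ketone libraries and 20.03 ± 4.23 per kb in the PBS libraries. Ppard stood at 37.3 ± 19.7 per kb in the ketone libraries and 25.7 ± 4.32 per kb in the PBS libraries. Ppara was lowest, at 12.2 ± 1.44 per kb in the ketone libraries and 10.8 ± 3.09 per kb in the PBS libraries. Per kb, Pparg thus had the highest mean of the 3 in the ketone libraries and Ppard in the PBS libraries, and the values of these neighbours overlapped in both groups. Before division by exon length Ppard was above Pparg in both groups, with means of 281 and 238 normalized counts in the ketone libraries and 193 and 59.2 in the PBS libraries. The order in the ketone libraries thus depends on the annotated exon lengths.

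**Figure D4:**
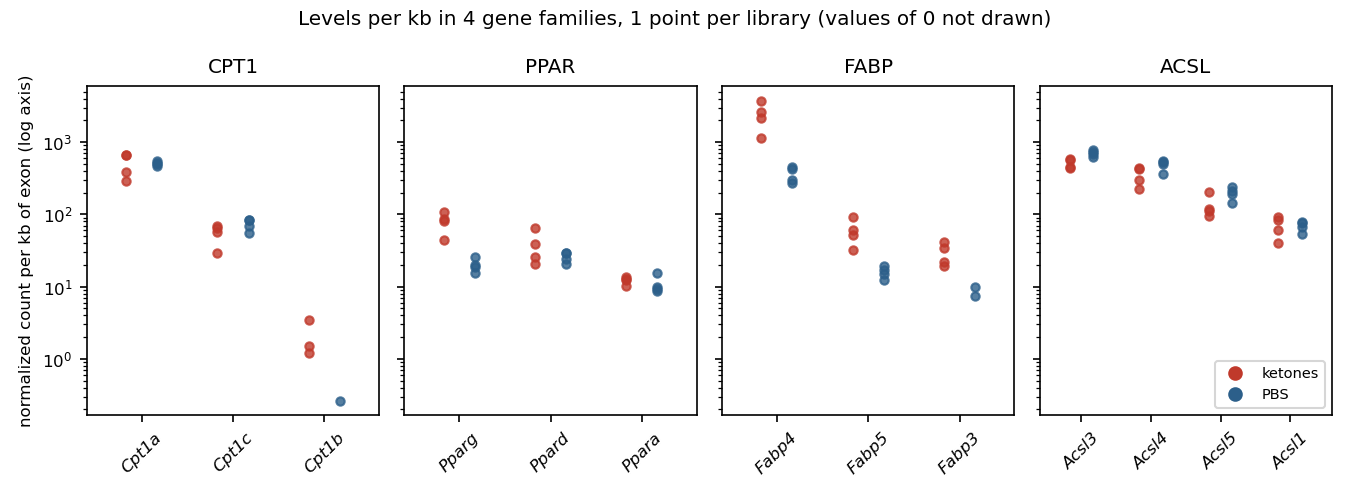
Normalized count per kb of annotated exon on a log axis for the genes of 4 families, 1 point per library, ketones in red left of PBS in blue, with values of 0 not drawn. Pparg and the 3 binding protein genes are higher in ketones, Cpt1a is far above Cpt1c and Cpt1b in both groups, and the ACSL genes overlap or lie slightly lower in ketones.

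The coactivator genes differed. Ppargc1b, a relative of Ppargc1a, had 75.3, 86.9, 131 and 112 normalized counts in ketone libraries 1 to 4, against 223, 173, 131 and 198 in PBS libraries 1 to 4. The groups touched where ketone library 3 and PBS library 3 were almost equal. It fell by 0.84 ± 0.27 on the log2 scale (adjusted p = 0.0354), a call lost without ketone library 1 or 2, or PBS library 1, 2 or 4, where the adjusted p was up to 0.131. Ppargc1a, the coactivator best known for mitochondrial biogenesis, had 86.1, 96.6, 125 and 93.3 in the ketone libraries, against 113, 72.5, 116 and 119.7 in the PBS libraries. It did not pass (log2 change -0.06 ± 0.27, adjusted p = 0.905).

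Of the 3 tested genes grouped as PPAR targets and other genes of the response, 1 fell and 2 did not pass, where 12.8% of all tested genes fell. Angptl4 (chromosome 17, 33773750 to 33781830), a secreted inhibitor of lipoprotein lipase and a common readout of PPAR activity, had 993, 2710.2, 1919 and 2657 normalized counts in ketone libraries 1 to 4, against 4807, 4576, 5579.6 and 4743 in PBS libraries 1 to 4. Every ketone library lay below every PBS library, with a log2 change of -1.35 ± 0.26 (adjusted p = 0.00186), and ketone library 1 was lowest. Lpl, whose product it inhibits, was higher, as given above. Ucp2, a mitochondrial carrier, had 2667, 4019.6, 1680.4 and 3155 in the ketone libraries, against 2389, 2108, 2176 and 2652 in the PBS libraries. The ketone values spread to both sides of the PBS range (log2 change 0.24 ± 0.22, adjusted p = 0.449). Ucp3, the muscle form, had 24, 0, 0 and 13 reads in the ketone libraries, against 0, 1, 14 and 0 in the PBS libraries, and was not tested. Acot2, a mitochondrial acyl-CoA thioesterase, had a log2 change of -0.15 ± 0.42 (adjusted p = 0.821), an uncertain value because Acot1 is a near-identical copy.

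A further 67 genes of the pathway, listed apart from the 45, gave 64 tested genes, of which 9 rose, 6 fell and 49 did not pass, with a median log2 change of -0.05. Their shares, 9 and 6 of 64, lie close to the 12.8% of all tested genes that went each way. After Gpihbp1, the largest rises were those of the lipid droplet coat gene Plin4 (2.53 ± 0.35, adjusted p = 0.000163), the muscle PGC-1 and ERR regulator gene Perm1 (1.84 ± 0.29) and the cytosolic thioesterase gene Acot1 (1.16 ± 0.24). The value of Acot1 is uncertain, as is that of its near-identical copy Acot2. Plin4 had 144, 177, 243 and 289 normalized counts in ketone libraries 1 to 4, against 36.7, 46.2, 19.5 and 44.5 in PBS libraries 1 to 4. The largest falls were those of the synthetase gene Acsl6 (-2.10 ± 0.35, adjusted p = 0.000757), the peroxisomal reductase gene Pecr (-0.98 ± 0.27), the lipase maturation gene Lmf1 (-0.93 ± 0.18) and the nuclear receptor coactivator gene Ncoa1 (-0.91 ± 0.16). Ncoa1 had 5534, 6440.0, 8601 and 7441 in the ketone libraries, against 13204, 12982, 12118 and 13714 in the PBS libraries. Pdk4, which restrains glucose oxidation and which fasting is known to raise in other tissues, did not pass. It was at 7049.7 ± 1426 normalized counts in the ketone libraries and 6839 ± 546 in the PBS libraries (log2 change 0.02 ± 0.17, adjusted p = 0.94). The PPAR partner gene Rxra and the oxidative regulator gene Esrra had log2 changes of 0.07 ± 0.14 and -0.06 ± 0.34.

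In a fit with the endothelial markers' mean log2 level as a covariate, a measure that itself separates the groups, limma called 0 of the 43 genes (2 higher and 4 lower at an unadjusted p below 0.05) and 0 of all tested genes (1480.0 at an unadjusted p below 0.05). The log2 change was then 1.58 ± 0.45 for Cd36, -0.22 ± 0.53 for Fabp4, -0.03 ± 0.87 for Pparg, 0.34 ± 0.44 for Pnpla2 and -1.21 ± 0.87 for Angptl4. Their SEs were larger than in the fit without it. With the myofiber mean as a covariate 8 genes rose and 8 fell, of which 3 rises were uptake genes, with Cd36 at 3.17 ± 0.26, Angptl4 at -0.60 ± 0.18 and Acads at -1.53 ± 0.27.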

How the data were processed

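Poly(A) RNA of sorted cells was copied from oligo(dT) primers and amplified, per the labels' protocols. The deposited table holds 1 value per gene and library, a signal in normalized counts: the submitters' processing notes name Trim Galore, STAR, featureCounts of Subread, DESeq2 and the build mm10, while versions, settings and use of strand are not given in those notes. Within each library all nonzero values were whole multiples of 1 step (0.638 to 1.39) within 0.001, for 100.0% of values, so the reads behind the deposited counts could be recovered. The recovered depth of 19174005 to 36870537 reads sets the precision of genes with few reads, and whole reads are amplified copies, not molecules. Left out were 2 rows whose symbol had been turned into a date.

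The test was limma 3.58.1 (R 4.3.3, trended eBayes, two-sided, Benjamini-Hochberg over all tested genes) on log2(normalized count + 1) for genes with a mean of at least 10, ketones minus PBS over all 8 libraries without covariates. A fold change on this scale understates the change of low genes. Per-kb levels divide the normalized count by the union of annotated exons (GENCODE, mm10). Promoters are RefSeq's. Libraries of 1 group differed by far more than the sampling noise of reads (lowest chi-square per degree of freedom 13.4), so none was a second deposit of another, which does not show that they come from separate animals. Deviations of libraries with the same number correlated at 0.11, -0.01, 0.00 and -0.06. These values gave no sign of pairing by number, though they cannot exclude a pairing with a small shared effect.

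The 45 genes, the other lists and the tests were chosen with earlier results of these data known. Values per library were given for called genes (up to 10 in each direction) and a fixed set of central genes. Outside the 45, the text names the 4 largest rises and falls of the other pathway genes, central regulators, the sort markers and abundant cell type markers. A few of the regulators and enzymes so chosen are not reported here. Alternatives were pseudocounts 0.5 and 5, no filter or a mean of 50, TMM or equal totals, edgeR 4.0.16 and DESeq2 1.42.0 on recovered reads, a replicate block, each library left out, ketone libraries 1 and 2 left out together, the endothelial or myofiber mean as a covariate, and stricter thresholds.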

Additional observations from a re-analysis of the deposited data

Results flagged for a closer look

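In 9 of 90 groups of 4 values, 1 library lay far from the other 3 of its group, by a gap rule that chance meets in about 1 in 20 groups. PBS library 2 was the low library in 5 of the 9. It had 415 normalized counts of the transporter gene Slc27a4 (other PBS libraries 498 to 516), 2350.0 of Acadvl (3596 to 3761) and 1738 of Hadha (2196 to 2261). The same library had 979.8 of Etfdh (1166 to 1195) and 72.5 of Ppargc1a (113 to 119.7).

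PBS library 3 was low in Acads, at 286 normalized counts against 371 to 377 in the other PBS libraries. PBS library 1 held the single read of Cpt1b in that group (0.896 normalized counts). Ketone library 1 was low in Cpt2, at 334 against 360.4 to 364 in the other ketone libraries. Ketone library 2 was low in Ehhadh, at 3.22 against 42.8 to 66.2.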

How the results depend on the processing

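Of the 9 rises and 9 falls among the 43 tested genes, counts stayed within 1.5 times of these under both pseudocounts, both filters, TMM, edgeR, DESeq2, the replicate block and the myofiber covariate. Equal totals left 2 falls. An adjusted p below 0.01 left 1 fall among the 43 genes, 3 among the other pathway genes and 1912 changed genes in all; a minimum of 2-fold left 2 falls, 5 rises and 1 fall among the other pathway genes, and 1782 genes. With the endothelial mean as a covariate every one of these counts was 0 in limma (unadjusted p below 0.05: 2 higher and 4 lower of the 43, 1480 of all genes). Leaving out 1 library gave 6 to 9 rises and 1 to 10 falls, 8 to 10 rises and 4 to 8 falls among the other pathway genes, and 2356 (without PBS library 1) to 4070.0 (without ketone library 1) changed genes. With library number as a replicate block, 9 rose and 9 fell, and among the 43 genes Ppargc1b lost its call (adjusted p = 0.0552) and Acsl5 passed (0.0331); of the other pathway genes 8 rose and 7 fell. Log2 changes that turned sign under the endothelial covariate were -0.22 for Fabp4, -0.095 for Fabp5, -0.80 for Lpl, 0.72 for Slc27a1, 1.09 for Acsl1, 0.060 for Acsl3, 0.75 for Acsl4, 1.36 for Cpt1a, 0.22 for Cpt1c, -0.49 for Slc25a20, 0.50 for Echs1, 0.11 for Etfdh, 1.90 for Ehhadh, -0.22 for Lipe, -1.78 for Ppard, -0.034 for Pparg, 0.58 for Ppargc1a, 0.53 for Ppargc1b and -1.47 for Ucp2. Under the myofiber covariate they were 0.50 for Acsl1, 0.41 for Cpt1a, -0.17 for Slc25a20, -0.041 for Ppara and 0.016 for Ppargc1a. Those that turned under equal totals were 0.0091 for Acsl1, 0.038 for Acadl, 0.012 for Acaa1a, 0.047 for Acaa2, 0.029 for Echs1, 0.0096 for Etfa and 0.0068 for Ppargc1a; with edgeR, 0.047 for Echs1 and 0.034 for Ehhadh; with DESeq2, 0.0049 for Acsl1, 0.049 for Echs1 and 0.039 for Ehhadh; without ketone libraries 1 and 2, 0.041 for Slc27a1, 0.37 for Acsl1, 0.40 for Cpt1a, 0.54 for Ehhadh, -0.15 for Ppard, 0.067 for Ppargc1a and -0.012 for Ucp2, where no test is read for Cpt1a and Acsl1 because these are their lowest ketone libraries. Leaving out 1 library turned the sign of Acsl1 (-0.22 to 0.19), Cpt1a (-0.27 to 0.13), Slc25a20 (-0.053 to 0.21), Ppargc1a (-0.22 to 0.015), Echs1 (-0.24 to 0.19), Ehhadh (-0.88 to 0.45), Acadl (-0.13 to 0.024), Acaa2 (-0.14 to 0.090), Etfa (-0.13 to 0.0024) and Acot2 (-0.45 to 0.049), none of them called. The cause of these changes was not tested. Genes with few reads, such as Fabp3, Cpt1b, Ucp3 and Ehhadh, are limited by depth.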
